A study of Mus musculus with 12 samples.

Results

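Paneth cells sit at the base of small intestinal crypts and release granules of antimicrobial proteins into the lumen. The genes described here encode products of those granules or, for Lyz2, a close relative of one. The tables were searched for 8 gene symbols, Lyz1, Lyz2, Ang4, Mmp7, Itln1, Defa17, Defa22 and Defa24, a list of names that sets no threshold on their values. Rows were found for 7 of them, of 18929 genes listed in all. Defa22 had no row by symbol or by Ensembl identifier, and 6 of the 7 passed the filter on low counts; Lyz2 did not.

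Lysozyme cleaves bacterial cell wall peptidoglycan. Mouse Lyz1 is the Paneth cell lysozyme, and its neighbour Lyz2 is the lysozyme of macrophages and other myeloid cells. Defa17, Defa22 and Defa24 belong to the alpha-defensins (cryptdins), small cationic peptides that damage microbial membranes, made as inactive precursors that the metalloproteinase matrilysin, the product of Mmp7, cleaves in mouse Paneth cells. Ang4 encodes a secreted ribonuclease of the angiogenin family with bactericidal activity. Itln1 encodes intelectin, a lectin that binds microbial sugars and is made by Paneth and goblet cells.

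RNA-Seq was performed on 12 libraries of mouse jejunal enteroids, epithelial cultures grown from crypts, to ask how loss of either histone deacetylase alters intestinal epithelial gene expression. There were 4 control, 4 Hdac1-deficient and 4 Hdac2-deficient libraries. Mutants carried the villin-Cre transgene, which drives Cre in intestinal epithelium, with floxed Hdac1 or Hdac2 alleles, in mice of mixed C57BL/6 J, 129SV and CD1 background. The paper calls the controls villin-Cre in its results and wild-type in its methods. Whether the controls carried the transgene is therefore uncertain. All enteroids were kept for 5 days in ENR medium, which contains EGF, Noggin and R-spondin. The methods name a single mouse of each genotype as the source of crypts, so that genotype and mouse or line cannot be told apart, and p-values measure the spread between these libraries, which may be technical.

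The libraries held between 20693200 and 30658628 counts. Hdac1 fell from 90.6 ± 2.76 counts per 1000000 mapped to genes (CPM; mean ± SD, n = 4) in control to 4.23 ± 0.834 in Hdac1-deficient enteroids, and Hdac2 from 137 ± 3.85 to 75.9 ± 2.89 in Hdac2-deficient enteroids. The 7 listed epithelial markers summed to 6029 to 6303 CPM in control, 6529 to 6706 upon Hdac1 loss and 7807 to 8128 upon Hdac2 loss. At an edgeR adjusted p of at most 0.05, 3 of them rose (Krt8, Krt19 and Vil1) and 2 fell (Krt18 and Cdh1) upon Hdac1 loss. Upon Hdac2 loss these 5 rose. Of all genes tested, 32.7% and 31.9% were called higher and lower upon Hdac1 loss, and 31.4% and 30.9% upon Hdac2 loss. Epcam and Cdx2 were not called in either mutant. Of 11 leukocyte markers 7 had rows, with a sum, mostly Cd14, of 29.6 to 32.1 CPM in control, 23.7 to 24.7 upon Hdac1 loss and 28.3 to 32.8 upon Hdac2 loss, and Ptprc, the defining leukocyte antigen, was at most 0.0837 CPM in the group means. The mesenchymal and endothelial markers had rows for 4 of 10 genes, with a sum of 1.39 to 1.87, 2.23 to 2.49 and 1.33 to 1.84 CPM in the same order. These sums moved with the groups, and their part in the changes of the antimicrobial genes was not tested. In these bulk samples a change in the number of Paneth cells and a change in RNA per Paneth cell cannot be told apart.

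The coding sequences of the 3 defensins are shown because their similarity bears on how reads could be divided between them. They were taken from GENCODE M21 transcripts, each 282 bases long, and capitals mark bases that differ from Defa24 at the same position.
Defa24: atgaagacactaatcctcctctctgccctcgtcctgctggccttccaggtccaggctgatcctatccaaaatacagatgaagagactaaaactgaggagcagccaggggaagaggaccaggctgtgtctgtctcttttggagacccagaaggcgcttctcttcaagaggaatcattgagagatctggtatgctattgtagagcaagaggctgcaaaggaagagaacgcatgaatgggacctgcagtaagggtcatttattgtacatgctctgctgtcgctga
Defa17: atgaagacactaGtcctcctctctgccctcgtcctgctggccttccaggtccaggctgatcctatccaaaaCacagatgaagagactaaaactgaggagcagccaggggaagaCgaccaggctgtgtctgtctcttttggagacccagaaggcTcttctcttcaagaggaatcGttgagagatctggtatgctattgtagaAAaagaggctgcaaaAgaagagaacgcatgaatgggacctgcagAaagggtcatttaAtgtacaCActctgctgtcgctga
Defa22: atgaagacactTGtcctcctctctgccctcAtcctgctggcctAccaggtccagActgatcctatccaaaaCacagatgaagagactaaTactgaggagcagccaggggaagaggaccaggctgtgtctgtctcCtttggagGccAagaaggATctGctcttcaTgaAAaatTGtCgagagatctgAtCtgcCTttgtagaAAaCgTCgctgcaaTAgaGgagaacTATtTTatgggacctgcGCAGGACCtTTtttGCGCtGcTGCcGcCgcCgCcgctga
Defa17 differed from Defa24 at 12 positions (95.7% identity), and Defa22 at 58 (79.4%). The sequence nearest to Defa22 among the pairs compared was Defa21, with 2 differences (99.3% identity). All 3 genes are protein coding and lie on the forward strand of chromosome 8 (GRCm38), Defa22 at chr8:21162277-21163249, Defa17 at chr8:21655780-21656735 and Defa24 at chr8:21734494-21735471.

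Reads were 100 nucleotides long, and transcripts were therefore compared in windows of 100 bases. No window of Defa24 was found in another annotated gene, out of 320 windows. Of 298 Defa17 windows, 270 (90.6%) also lay in Defa3, so that Defa17 and Defa3 reads are uncertain as to their gene. Of 320 Defa22 windows, 129 (40.3%) also lay in Defa21, a gene that likewise had no row. The 16 protein-coding alpha-defensin genes with a row shared a median of 14.45% of their windows (range 0% to 100%). The 10 without one shared a median of 97.2% (range 40.2% to 100%), so the ranges overlapped. The part of shared windows in the missing row of Defa22 was not tested, and its level is not analysed here. Lyz1 shared 24 of 1164 windows (2.06%) with Lyz2, and Ang4, Mmp7 and Itln1 shared none.

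**Figure D1:**
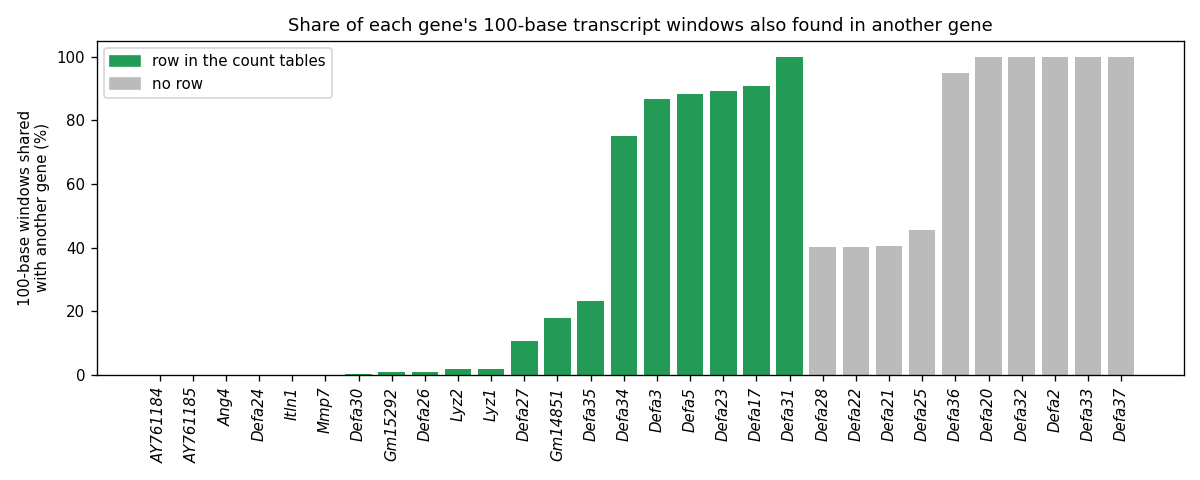
Percentage of 100-base transcript windows that also occur in another gene (y axis), for the named genes and other protein-coding alpha-defensin genes (x axis, GENCODE names). Green bars are genes with a row in the count tables and grey bars genes without one; Defa24 stands at 0, Defa17 at 90.6% and Defa22 at 40.3%.

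Lyz1 rose in both mutants, and was the member with the largest fold change in each. It is a protein-coding gene on the reverse strand at chr10:117287797-117292868. In control libraries 1 to 4, Lyz1 stood at 605, 493, 517 and 569 CPM. In the Hdac1-deficient libraries it stood at 1257, 1332, 1305 and 1266 CPM, and in the Hdac2-deficient libraries at 1225, 1199, 1149 and 1258 CPM. Every mutant library lay far above every control library, and the mutants overlapped each other. Lyz1 rose by 1.26 on the log2 scale in Hdac1-deficient enteroids (SE 0.054, 95% interval 1.14 to 1.37, a 2.39-fold change, edgeR adjusted p = 1.4e-11). In Hdac2-deficient enteroids it rose by 1.16 (SE 0.059, 95% interval 1.03 to 1.29, 2.23-fold, edgeR adjusted p = 8.46e-09). The difference between the mutants was 0.10 (95% interval -0.01 to 0.20, edgeR adjusted p = 0.139). That call depended on the fit, since the adjusted p was 0.042 with library size alone as the scale, 0.012 with the mutant libraries fitted alone and 0.030 without control replicate 1.

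Lyz2, at chr10:117277331-117282321 on the same strand, was barely detected. Its counts were 0, 5, 5 and 2 in the control libraries, 7, 6, 8 and 4 in the Hdac1-deficient libraries and 5, 6, 1 and 4 in the Hdac2-deficient libraries. The groups overlapped, and 3 counts correspond to between 0.0971 and 0.145 CPM in these libraries. Summed over the 4 control libraries there were 12 Lyz2 counts against 61205 for Lyz1. Without the filter on low counts, the Lyz2 log2 difference was 0.99 for Hdac1-deficient against control (95% interval -0.18 to 2.16, edgeR adjusted p = 0.15) and 0.61 for Hdac2-deficient against control (95% interval -0.71 to 1.93, edgeR adjusted p = 0.46). The first of these intervals holds both 0 and the size of the Lyz1 change, and so does the second, so that a change of Lyz2 was not detectable at this depth.

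The lysozyme genes are close copies of each other, with 95.1% identity over a coding sequence of 447 bases (22 differences). The 100 bases before their RefSeq transcription starts (GRCm38.p6) are shown because the genes stood at such different levels; capitals mark bases that differ between the genes at the same distance from the start.
Lyz1: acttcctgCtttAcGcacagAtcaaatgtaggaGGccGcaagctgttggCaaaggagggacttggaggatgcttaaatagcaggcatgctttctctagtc
Lyz2: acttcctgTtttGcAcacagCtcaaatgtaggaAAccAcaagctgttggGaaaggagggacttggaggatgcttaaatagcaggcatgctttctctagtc
These stretches lie at chr10:117292869-117292968 and chr10:117282273-117282372, both read on the reverse strand. They matched at 92 of 100 positions, and the 50 bases next to the start were identical. By GENCODE the Lyz2 gene reaches to chr10:117282321, so most of those 50 bases lie inside the annotated Lyz2 gene. The Lyz1 stretch lies outside the GENCODE Lyz1 gene.

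The study's quantitative PCR primers for lysozyme, listed as Lys 2, were compared with both transcripts since the copies are so alike. The upstream primer is shown with capitals where it differs from Lyz1.
Lys 2 upstream primer: atggaatggCtggctacTAtggAg
Lyz1 site: atggaatggAtggctacCGtggTg
This primer matched Lyz2 without a mismatch and differed from Lyz1 at 4 of 24 bases, written as primer base, position from the 5′ end of the primer and site base: C10A, T18C, A19G and A23T. The downstream primer matched both genes without a mismatch, and the predicted product was 259 bases in either transcript.

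The alpha-defensin Defa24 did not pass the test in any comparison. Defa24 read 547, 462, 465 and 541 CPM in control libraries 1 to 4. It read 484, 515, 528 and 462 CPM in the Hdac1-deficient libraries and 486, 508, 507 and 531 CPM in the Hdac2-deficient libraries. All 3 groups overlapped, and control libraries 2 and 3 were the lowest 2 controls for Lyz1 and Defa24 alike. The log2 difference from control was -0.00 for the Hdac1-deficient libraries (95% interval -0.15 to 0.14, edgeR adjusted p = 0.97) and 0.02 for the Hdac2-deficient libraries (95% interval -0.11 to 0.16, edgeR adjusted p = 0.763). Between the mutants it was -0.03 (95% interval -0.16 to 0.11, edgeR adjusted p = 0.748).

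Defa17 rose in the Hdac2-deficient libraries. Defa17 levels were 64.2, 53.4, 55.8 and 61.6 CPM in control, 52.9, 56.3, 59.3 and 50 CPM in Hdac1-deficient and 66.8, 65.7, 67.7 and 74.6 CPM in Hdac2-deficient libraries. The Hdac2-deficient libraries lay above all others, though the lowest of them and the highest control were close, and control and Hdac1-deficient libraries overlapped. The rise was 0.24 on the log2 scale (SE 0.056, 95% interval 0.12 to 0.36, 1.18-fold, edgeR adjusted p = 0.00181). In Hdac1-deficient enteroids the difference was -0.09 (95% interval -0.22 to 0.04, edgeR adjusted p = 0.231), and the mutants differed from each other by -0.33 (SE 0.063, edgeR adjusted p = 0.000378). Because of the windows shared with Defa3, which stood at 0.854 to 1.13 CPM in the group means, these values may include reads of both genes. The listed alpha-defensin rows, with Defa17 and Defa24 but without Gm10104 (Defa35 in GENCODE), were also summed into a single feature. That feature rose by 0.20 in Hdac1-deficient (edgeR adjusted p = 0.013) and by 0.18 in Hdac2-deficient enteroids (edgeR adjusted p = 0.022). Between the mutants it differed by 0.02 (edgeR adjusted p = 0.78). Defa24, at 504 CPM in control against 58.8 for Defa17, was its largest row, so the sum cannot decide on Defa17 alone.

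Mmp7, which encodes the enzyme that cleaves pro-defensins, rose upon Hdac2 loss, and the direct test separated the mutants. The gene lies at chr9:7692090-7699585 on the forward strand. Mmp7 stood at 75.9, 71.4, 74.2 and 77.2 CPM in control and at 71.9, 79.6, 78.9 and 73.7 CPM in Hdac1-deficient libraries. In the Hdac2-deficient libraries it stood at 118, 123, 121 and 118 CPM. The Hdac2-deficient libraries were set apart from the other 8, which overlapped. The log2 difference from control was 0.70 in Hdac2-deficient (SE 0.035, 1.62-fold, edgeR adjusted p = 2.69e-13) and 0.04 in Hdac1-deficient enteroids (95% interval -0.05 to 0.13, edgeR adjusted p = 0.398). Between the mutants the log2 difference, Hdac1-deficient minus Hdac2-deficient, was -0.66 (SE 0.038, edgeR adjusted p = 8.65e-14).

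Ang4 moved in opposite directions in the mutants. It lies at chr14:51763878-51773590 on the reverse strand. Ang4 levels were 341, 305, 318 and 331 CPM in control libraries. They were 199, 209, 221 and 199 CPM in Hdac1-deficient libraries and 364, 372, 362 and 356 CPM in Hdac2-deficient libraries. No groups overlapped: Hdac1-deficient libraries were the lowest and Hdac2-deficient libraries the highest. Ang4 fell by 0.63 on the log2 scale in Hdac1-deficient enteroids (SE 0.041, 0.647 of control, edgeR adjusted p = 6.73e-11) and rose by 0.18 in Hdac2-deficient enteroids (SE 0.033, 1.13-fold, edgeR adjusted p = 8.77e-05). The mutants differed by -0.81 (SE 0.037, 95% interval -0.89 to -0.73, edgeR adjusted p = 9.81e-16).

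Itln1 rose in both mutants. It lies at chr1:171518122-171535294 on the reverse strand. Itln1 stood at 851, 748, 739 and 834 CPM in control, 1077, 1155, 1169 and 1047 CPM in Hdac1-deficient and 1136, 1177, 1171 and 1193 CPM in Hdac2-deficient libraries. All 8 mutant libraries were above the controls, and the mutants overlapped. The rise was 0.50 on the log2 scale in Hdac1-deficient (SE 0.050, 1.42-fold, edgeR adjusted p = 1.62e-07) and 0.57 in Hdac2-deficient enteroids (SE 0.042, 1.49-fold, edgeR adjusted p = 2.16e-09). The difference between the mutants was -0.07 (95% interval -0.16 to 0.02, edgeR adjusted p = 0.212).

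**Figure D2:**
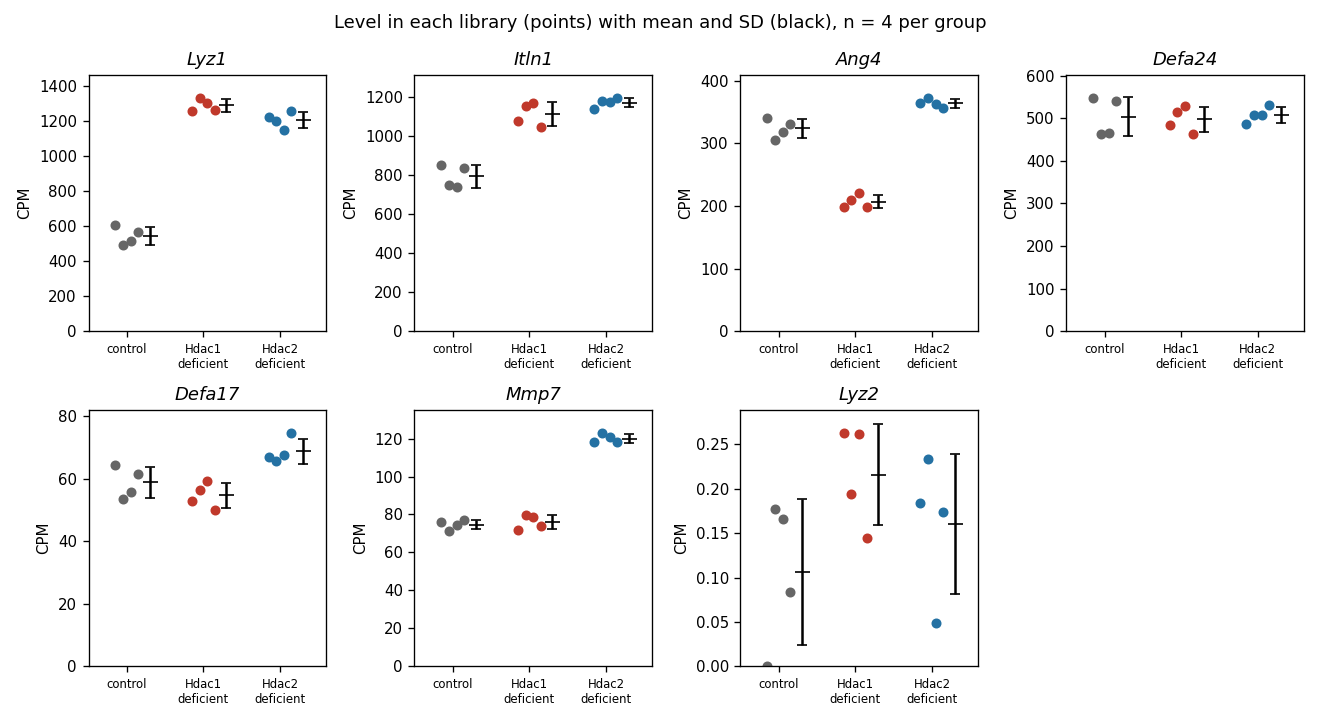
CPM (y axis, from 0) of each listed gene in each library, in 1 panel per gene, for control, Hdac1-deficient and Hdac2-deficient enteroids. Points are libraries and black bars the mean and SD (n = 4); Lyz1 and Itln1 were above control in every mutant library, Mmp7 in every Hdac2-deficient library, and Defa24 overlapped in all groups.

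Counted together, 2 of the 6 tested genes rose in Hdac1-deficient enteroids (Lyz1 and Itln1) and Ang4 fell, where 32.7% of the 14246 genes tested were called higher and 31.9% lower with an adjusted p no higher than 0.05. In Hdac2-deficient enteroids 5 of 6 rose and none fell, where 31.4% of 14007 tested genes were called higher and 30.9% lower. Lyz1 was the only one called with more than a 2-fold change, in each mutant, against 6.87% and 5.45% of tested genes called higher by that rule. Between the mutants 3 of 6 were lower in Hdac1-deficient enteroids (Ang4, Mmp7 and Defa17) and none higher, where 23.7% of 14510 tested genes were called lower and 22.3% higher. The median log2 difference over the 6 genes was 0.02, 0.40 and -0.20 in these comparisons, and -0.004, -0.004 and 0.005 over all genes tested. The comparisons with control share the same 4 control libraries.

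**Figure D3:**
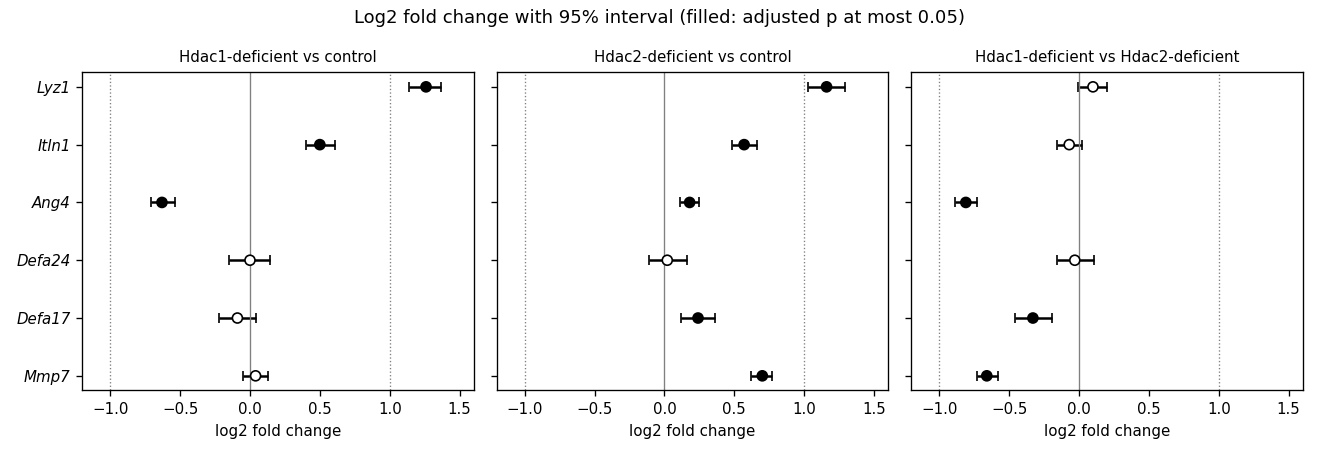
Log2 fold change (x axis) of the 6 tested genes (y axis) in the comparisons of each mutant with control and of the mutants with each other, with 95% intervals. Filled points have an edgeR adjusted p of at most 0.05 and dotted lines mark a 2-fold change; Lyz1 lies beyond it in both mutants, and Ang4, Mmp7 and Defa17 lie below 0 in the direct comparison.

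Since levels of different genes can be compared only per transcript length, CPM were divided by exon length in kilobases. On this scale Defa24 was the highest in control, at 1202 CPM per kb, followed by Itln1 at 695, Ang4 at 457, Lyz1 at 432, Defa17 at 148, Mmp7 at 69.9 and Lyz2 at 0.0809. Ang4 and Lyz1 overlapped in control, at 430 to 481 and 390 to 479 CPM per kb. In Hdac1-deficient enteroids Lyz1 came next to Defa24, at 1021 against 1187 CPM per kb, with Itln1 at 974 and Ang4 at 292. Lyz1 and Itln1 overlapped there, at 995 to 1054 and 917 to 1024 CPM per kb. In Hdac2-deficient enteroids Defa24 stood at 1212, Itln1 at 1025, Lyz1 at 956, Ang4 at 513, Defa17 at 173 and Mmp7 at 112 CPM per kb, and Itln1 and Lyz1 touched at 996. The place of Defa17 in this order carries the uncertainty of its shared windows.

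Together the listed genes took 0.214% to 0.246% of all counts in control libraries, 0.311% to 0.344% in Hdac1-deficient and 0.333% to 0.348% in Hdac2-deficient libraries. Lyz1 supplied 23.1% to 24.4% of those counts in control, 38.8% to 40.9% in Hdac1-deficient and 34.0% to 36.1% in Hdac2-deficient libraries. The share of Defa24 was 21.5% to 22.4% in control and 14.3% to 15.7% in the mutants. The share of Ang4 was 13.7% to 14.7% in control, 6.26% to 6.57% in Hdac1-deficient and 10.1% to 10.8% in Hdac2-deficient libraries. Itln1 held 33.5% to 35.1% throughout.

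**Figure D4:**
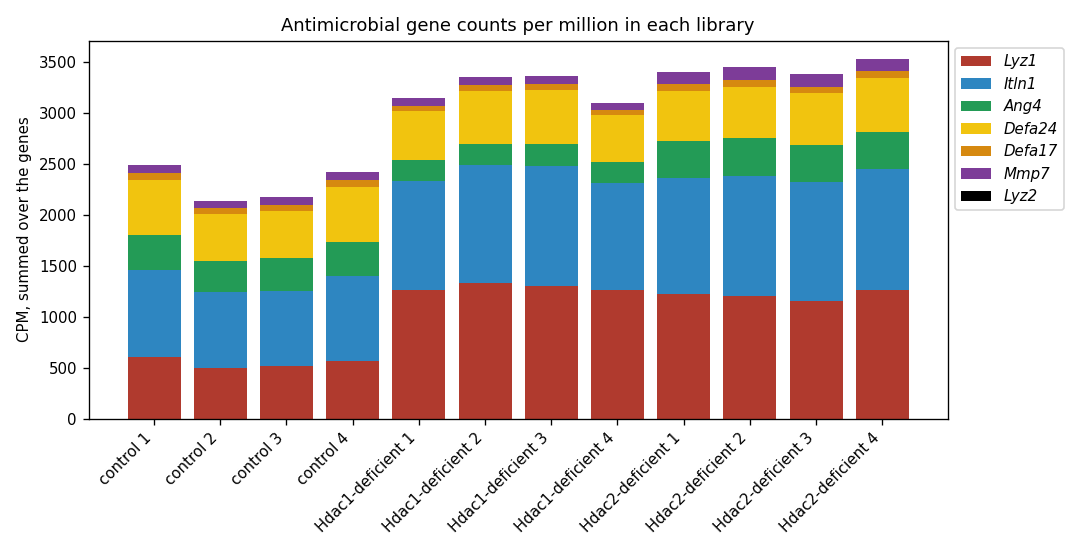
CPM summed over the listed genes (y axis, from 0) in each of the 12 libraries (x axis), stacked by gene. The stacks reach 2132 to 2484 CPM in control, 3098 to 3362 in Hdac1-deficient and 3378 to 3531 in Hdac2-deficient libraries, with the Lyz1 segment widened in both mutants; Lyz2 is too low to be seen.

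Defa24, whose windows had no exact match in another GENCODE M21 gene, was also used as a reference within each library, which removes the library scale. Whether its reads were kept apart from those of other defensins was not tested. Lyz1 stood at 1.11, 1.07, 1.11 and 1.05 times the Defa24 CPM in control libraries. The ratio was 2.6, 2.58, 2.47 and 2.74 in Hdac1-deficient libraries and 2.52, 2.36, 2.27 and 2.37 in Hdac2-deficient libraries. It was higher in each mutant by 1.26 and 1.13 on the log2 scale, with no overlap (2-sided exact permutation test, p = 0.0286, the smallest p that 4 against 4 allows, adjusted p = 0.039 over 15 tests). Itln1 rose relative to Defa24 by 0.50 and 0.55 at the same exact p in both mutants. Relative to Defa24, Ang4 fell by 0.63 in Hdac1-deficient enteroids (exact permutation p = 0.0286) and differed by 0.15 in Hdac2-deficient enteroids, where the groups overlapped (exact permutation p = 0.0571, adjusted p = 0.0612). Mmp7 rose by 0.67 relative to Defa24 in Hdac2-deficient enteroids (exact permutation p = 0.0286) and differed by 0.04 in Hdac1-deficient ones (exact permutation p = 0.457). Defa17 relative to Defa24 fell by 0.09 in Hdac1-deficient and rose by 0.21 in Hdac2-deficient enteroids, each at an exact permutation p of 0.0286.

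Other alpha-defensins lie in the same cluster on chromosome 8 and had 18 further rows, of which 11 could be tested for Hdac1 loss and 10 for Hdac2 loss. Upon Hdac1 loss 6 rose and 1 fell, against 32.7% and 31.9% of all tested genes called higher and lower. Those 6 are not all separate, since they include Defa5 and Gm15315 (Defa34 in GENCODE). These share 207 windows, 74.7% of Defa5 and 75.0% of Gm15315, so their reads are uncertain as to their gene. The 6 also include the pseudogene Defa-ps7, which passed the filter on low counts only through the Hdac1-deficient libraries. Upon Hdac2 loss 4 rose and 2 fell, against 31.4% and 30.9%. AY761184, which shares no window with another gene, rose from 11.9 ± 0.595 CPM to 44.9 ± 3.96 in Hdac1-deficient enteroids (log2 1.94, edgeR adjusted p = 2.77e-15) and to 28.9 ± 3.00 in Hdac2-deficient ones (log2 1.30, edgeR adjusted p = 9.81e-13). Gm14851 rose from 0.749 to 5.14 CPM in Hdac1-deficient enteroids (log2 2.79, edgeR adjusted p = 2.16e-11) and stood at 1.26 CPM in Hdac2-deficient ones (log2 0.73, edgeR adjusted p = 0.00948). The pseudogene Defa-ps7 was tested only in the Hdac1 comparison, with a fitted log2 difference of 4.73 that depends on the prior count. Gm15299 fell in both mutants, from 2.84 CPM to 1.64 and 1.21 (log2 -0.75 and -1.24). Gm15284, or Defa30, rose from 43.3 to 114 CPM in Hdac1-deficient enteroids (log2 1.42) and to 51.3 CPM in Hdac2-deficient ones (log2 0.26), a difference of 1.16 between the mutants (edgeR adjusted p = 2.53e-07). The row Gm10104, Defa35 in GENCODE, was not in the list and was chosen after its values were seen; it rose from 44.1 ± 5.00 to 73.5 ± 4.33 CPM in Hdac1-deficient enteroids (log2 0.76, edgeR adjusted p = 5.23e-07) and stood at 41.9 ± 2.30 CPM in Hdac2-deficient ones (edgeR adjusted p = 0.479).

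**Figure D5:**
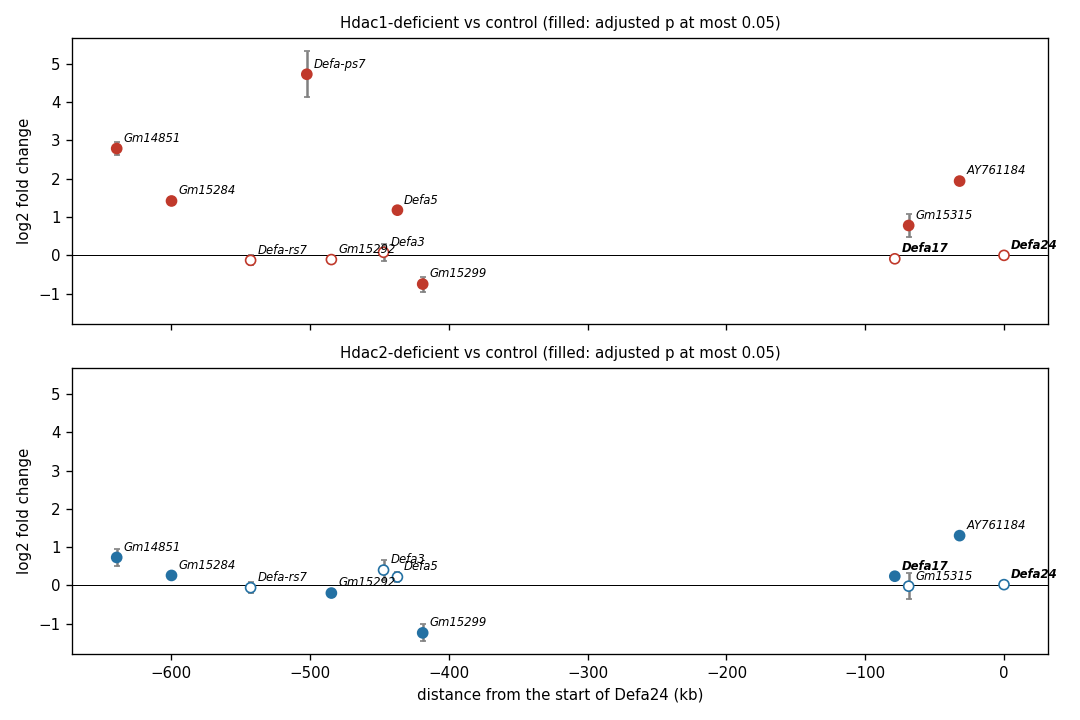
Log2 fold change against control (y axis, with SE) of tested alpha-defensin rows by their distance from the start of Defa24 (x axis, kb), for Hdac1-deficient (upper panel) and Hdac2-deficient enteroids (lower panel). Filled points have an edgeR adjusted p of at most 0.05; Defa24 at distance 0 lies at a log2 of -0.00 and 0.02, while its neighbour AY761184 lies at 1.94 and 1.30.

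Among 12 other Paneth cell products, 11 were tested. Upon Hdac1 loss 3 rose and 3 fell, against 32.7% and 31.9% of all tested genes called higher and lower, and upon Hdac2 loss 2 rose and 3 fell, against 31.4% and 30.9%. Mptx2, a pentraxin of Paneth cells, rose from 23 ± 0.791 CPM to 74.3 ± 6.38 in Hdac1-deficient (log2 1.71) and 178 ± 8.77 in Hdac2-deficient enteroids (log2 2.97, edgeR adjusted p = 2.05e-22). Its neighbour in name, Mptx1, rose from 62.4 to 165 CPM in Hdac1-deficient enteroids (log2 1.42) and stood at 57.0 CPM in Hdac2-deficient ones (edgeR adjusted p = 0.0513). The chemokine Ccl6 rose by 1.22 and 1.67 on the log2 scale. The genes that fell were the same in both mutants and are named after their values were seen: Habp2 by log2 differences of -1.03 and -0.39, Cd24a by -0.58 and -0.30, and the receptor gene Kit by -0.27 and -0.26. The niche signals Wnt3, Egf and Dll4 were not called against control in either mutant, with log2 differences of 0.04, 0.36 and -0.10 in Hdac1-deficient and 0.01, -0.37 and 0.07 in Hdac2-deficient enteroids. Between the mutants Egf differed by 0.72 (edgeR adjusted p = 0.0111) and Dll4 by -0.17 (edgeR adjusted p = 0.0394), while Wnt3 was not called (0.03, edgeR adjusted p = 0.766). Egf was low, at 0.663 to 1.09 CPM in the group means.

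Of 18 tested regulators and granule genes of Paneth cells, 4 rose and 4 fell upon Hdac1 loss, against 32.7% and 31.9% of all tested genes called higher and lower. Upon Hdac2 loss 4 rose and 5 fell, against 31.4% and 30.9%. Sox9, a transcription factor required for Paneth cells, fell in both (log2 -0.28 and -0.34). Atoh1, Gfi1 and Spdef, secretory lineage factors, were not called, at log2 differences of -0.11, -0.01 and -0.03 in Hdac1-deficient and 0.03, -0.19 and -0.08 in Hdac2-deficient enteroids. Nod2, a sensor of bacterial peptidoglycan, rose from 1.17 to 3.54 CPM in Hdac1-deficient enteroids (log2 1.63, edgeR adjusted p = 5e-08).

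Of other antimicrobial products, 9 were tested upon Hdac1 loss. Of these 7 rose and 2 fell, against 32.7% and 31.9% of all tested genes called higher and lower. Upon Hdac2 loss 9 were tested and all 9 rose, against 31.4% and 30.9%. The sets differed, since S100a9 was tested only upon Hdac1 loss and Ltf only upon Hdac2 loss. Both, like Retnlb and Wfdc2, passed the filter on low counts only through mutant libraries, so they could count only as rises. Retnlb, a goblet cell product, stood at 0.106 CPM in control and reached 41.1 CPM upon Hdac1 loss and 67.8 CPM upon Hdac2 loss. The C-type lectin Reg3b rose from 13.2 to 300 and 125 CPM (log2 4.52 and 3.25) and Reg3g from 108 to 238 and 304 CPM (log2 1.16 and 1.51). Wfdc2 stood at 0.194 CPM in control and rose to 2.36 CPM upon Hdac1 loss and 0.518 CPM upon Hdac2 loss. Sprr2a1 fell from 2.38 to 0.513 CPM in Hdac1-deficient (log2 -2.18) and rose to 4.80 CPM in Hdac2-deficient enteroids (log2 1.02). Ltf, at 0.167 CPM in control and 0.478 in Hdac2-deficient enteroids, and S100a9, at 0.164 CPM in control and 0.993 in Hdac1-deficient enteroids, were low in all groups.

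Relatives of the named genes were few. Ang, another angiogenin, which was named after its values were seen, moved opposite to Ang4, with a rise of 0.41 in Hdac1-deficient (edgeR adjusted p = 0.000451) and a fall of 0.34 in Hdac2-deficient enteroids (edgeR adjusted p = 0.0031). The ribonuclease gene Rnase1 stood at 0.385 CPM in control, 8.39 CPM upon Hdac1 loss and 0.212 CPM upon Hdac2 loss. In all, 2 of 4 tested relatives rose and 2 fell upon Hdac1 loss, against 32.7% and 31.9% of all tested genes called higher and lower. The rises include Rnase1, which passed the filter on low counts only through the Hdac1-deficient libraries. Of 3 tested upon Hdac2 loss none rose and 2 fell, against 31.4% and 30.9%.

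Goblet cell markers moved with the groups as well. All 9 were tested. Upon Hdac1 loss 4 rose and 2 fell, against 32.7% and 31.9% of all tested genes called higher and lower, and upon Hdac2 loss 9 rose, against 31.4% and 30.9%. Their summed levels were 1933 to 2159 CPM in control, 1977 to 2122 in Hdac1-deficient and 3048 to 3271 in Hdac2-deficient libraries. Most of that sum was Fcgbp and Tff3, which stood at 947 and 419 CPM in control and 810 and 314 CPM upon Hdac1 loss. Zg16, Clca1 and Muc2 rose in Hdac1-deficient libraries, by 1.36, 1.22 and 0.99 on the log2 scale, as Lyz1 and Itln1 did. The part of the goblet markers in the changes of the antimicrobial genes was not tested in either mutant.

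For each tested gene, the most similar patterns were sought among 14504 other genes, as the root mean square (RMS) difference of log2 CPM over the 12 libraries after centring on control. Closest to Lyz1 were Gm766 (RMS 0.076) and the linker histone gene Hist1h1c (0.085), and closest to Itln1 were Hddc3 (0.061) and Bcl2l14 (0.064). Closest to Ang4 were 9030617O03Rik (0.073) and Egln3 (0.076), and closest to Mmp7 were the transcription factor gene Atf5 (0.030) and Mal2 (0.065). Gch1 (0.062) and Ap5s1 (0.072) were closest to Defa17, and Rps27l (0.047) and Uqcr11 (0.048) to Defa24. None of these 12 genes is in the Paneth cell lists.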

How the data were processed

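Poly(A) RNA of 12 enteroid libraries was sequenced from directional libraries in paired reads of 100 nucleotides. The authors aligned reads to GRCm38 with STAR (2.4.0f1 in the submitters' processing notes) after bcl2fastq 1.8.4. The deposited counts are whole, unnormalized read counts per gene, in 1 table per mutant with the same 4 control libraries, and hold no gene whose 8 libraries sum to fewer than 10. The counting program and its use of strand and of reads that match several genes are not given in the sources used here. The 16 deposited normalized columns, and the authors' own fold changes and p-values, were not used.

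Counts were tested with edgeR 4.0.16 (R 4.3.3; filterByExpr, TMM, robust quasi-likelihood F test, Benjamini-Hochberg adjustment over all tested genes), each mutant with control over 8 libraries and the mutants with each other over 12. Calls required an adjusted p no higher than 0.05, and a stricter rule also a fold change above 2. CPM used the TMM factors of all 12 libraries. DESeq2 1.42.0, other scales and filters, summed genes (the listed alpha-defensin rows, and Lyz1 with Lyz2), a replicate block and libraries left out in turn were alternatives. Scripts were tested on simulated data. GENCODE M21 transcripts gave lengths, coordinates (18817 of 18929 identifiers matched) and windows, which were compared on the same strand. RefSeq promoters lacked Defa17 and Defa24. Figures used Python 3.11.15 and matplotlib 3.10.9.

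Named were every member, list genes called with more than 2-fold change (up to 3 per list and comparison), the niche and lineage genes Wnt3, Egf, Dll4, Sox9, Atoh1, Gfi1, Spdef and Mptx2, the other alpha-defensin row with the highest mean count, Hdac1 and Hdac2, and the 2 genes most like each member. Ang, Gm10104, Habp2, Cd24a, Kit and goblet markers were named outside this rule. That alpha-defensin row, the highest by count, is not reported here. The members and lists were chosen with earlier results of these data known. Depth was 20693200 to 30658628 counts per library, and floors of 3 counts cover counting error only.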

Additional observations from a re-analysis of the deposited data

Results flagged for a closer look

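Ang4, Mmp7 and Defa17 differed between the mutants by the direct edgeR test over all genes. Hdac1-deficient minus Hdac2-deficient log2 differences were -0.81 for Ang4, -0.66 for Mmp7 and -0.33 for Defa17, and for each of these genes all 4 Hdac1-deficient libraries lay below all 4 Hdac2-deficient libraries. For Defa17, 90.6% of windows are shared with Defa3. The sum of the listed alpha-defensin rows differed by 0.02 (edgeR adjusted p = 0.78), but Defa24 was its largest row, so the sum cannot decide on Defa17. Genotype and mouse or line cannot be told apart in these differences.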

How the results depend on the processing

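The counts of called genes stayed within 1.5 times the reported count in all 116 alternatives run for them. Leaving out 1 library at a time gave 3 called genes upon Hdac1 loss and 5 upon Hdac2 loss each time, and 3 to 4 between the mutants. The values of single genes were counted together with the ratios to Defa24 recomputed without each library, which were given no p-value. Of these values 450 kept direction and, where one applied, side of the threshold. Another 14 changed sign and 4 passed the threshold with no change of sign. Most of the values that changed sign were Defa24, whose difference was near 0. It changed sign in Hdac2-deficient enteroids with library size alone as the scale (-0.01) and between the mutants with library size alone (0.00). With the listed alpha-defensin rows summed, it changed sign in Hdac1-deficient enteroids and between the mutants (0.20 and 0.02). Those values were the same for Defa17, since both were then the same feature. In Hdac1-deficient enteroids that feature also passed the threshold (edgeR adjusted p = 0.013). Between the mutants it did not (edgeR adjusted p = 0.78), and since Defa24 was its largest row, it cannot decide on Defa17. In Hdac2-deficient enteroids the summed feature passed the threshold at 0.18. Without 1 library, Defa24 ranged from -0.05 to 0.04 in Hdac1-deficient, -0.02 to 0.06 in Hdac2-deficient and -0.06 to 0.01 between mutants. Lyz1 between the mutants passed the threshold with library size alone (0.12), the mutants alone (0.10) and without control replicate 1 (0.10). Ratios to Defa24 were recomputed without each library, a check chosen after seeing the data, and Lyz1 gave 1.23 to 1.28 and 1.11 to 1.16 in the mutants.

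Same-numbered libraries of different groups did not deviate together (12 pairs, correlations of -0.045 to 0.091). No shared effect of the numbers was seen, but this check cannot show whether such libraries were prepared together. With the replicate block, the numbers called were 3 upon Hdac1 loss, 5 upon Hdac2 loss and 3 between the mutants, and no member changed its call. Depth limits Lyz2 alone among the listed genes.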
